A study of Mus musculus with 4 samples.

Results

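The genes examined here encode 6 subunits of the NMDA receptor, Grin1, Grin2a, Grin2b, Grin2c, Grin2d and Grin3a. They were taken by gene symbol from a table of read counts for 29300 genes in hippocampus, and all 6 passed the filter on low counts that left 17144 genes for testing. The hippocampi came from 4 male C57BL/6 mice aged 7 to 8 months, with 1 library from each mouse. The 2 control mice, labelled sham, received isoflurane anesthesia and tramadol analgesia without an operation. The 2 surgery mice received the same drugs and an open tibial fracture with an intramedullary nail, the study's model of perioperative neurocognitive disorder. All hippocampi were taken on day 1 after surgery, so every comparison below is of surgery on top of anesthesia, and an effect of anesthesia itself cannot be seen. The libraries are separate mice, and with 2 in each group a p-value rests on few animals.

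NMDA receptors are glutamate-gated cation channels that open only when glutamate and a co-agonist, glycine or D-serine, are bound and depolarization has relieved the block of the pore by magnesium. Each channel is a tetramer that needs GluN1, the product of Grin1, joined by GluN2 subunits and in some channels by GluN3. Calcium entry through these channels starts long-term potentiation at hippocampal synapses, and the GluN2 subunit sets how long the channel stays open and which scaffold and signaling proteins it binds.

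Library totals ran from 15763432 to 18573386 counts. Levels are given as CPM, a gene's counts scaled to the same library total in every mouse, after normalization of the totals by the trimmed mean of M values (TMM). A gene is said to have passed the test where its adjusted p was under 0.05 by edgeR's quasi-likelihood test, adjusted by the Benjamini-Hochberg procedure over all genes tested, and is called a differentially expressed gene (DEG) where its fold change was also at least 1.5 or at most 0.67. Of all genes tested, 26% passed, 13.1% higher and 12.8% lower in the surgery mice. The log2 fold changes of all genes trended downward with transcript GC content, so the main values are set beside those of a second edgeR fit in which each library's trend with GC content and exon length was removed through offsets. In that fit 4.98% of the genes passed, 2.99% higher and 1.99% lower. The mRNAs and tRNAs of the mitochondrial genome made up 2.82% and 2.53% of each control library against 4.45% and 4.49% of each surgery library. Whether these differences between the libraries have a part in the results was not tested.

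Grin1, Grin2c and Grin2d were lower in the surgery mice, and none of the 6 genes passed the test as higher. Grin1 fell by 31.7%, Grin2c by 27.7% and Grin2d by 33.7%, while Grin2a, Grin2b and Grin3a differed by less than the test could tell from the spread between mice. The 3 of 6 genes that passed as lower stand beside 12.8% of all genes tested, and none passed as higher at an unadjusted p under 0.05 or by DESeq2 either. Both surgery mice lay below both control mice in the same 3 genes, beside 32.2% of all genes tested that were separated in this direction and 33.2% in the other. Grin2d alone was a DEG, beside 2.25% of all genes tested that were lower DEGs and 6.75% that were higher DEGs. The median log2 fold change of the 6 genes was -0.23, and that of all genes tested was 0.01. With the GC content and length offsets none of the 6 passed the edgeR test, beside the 4.98% of all genes, 1 was lower at an unadjusted p under 0.05, and the median was -0.11.

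**Figure D1:**
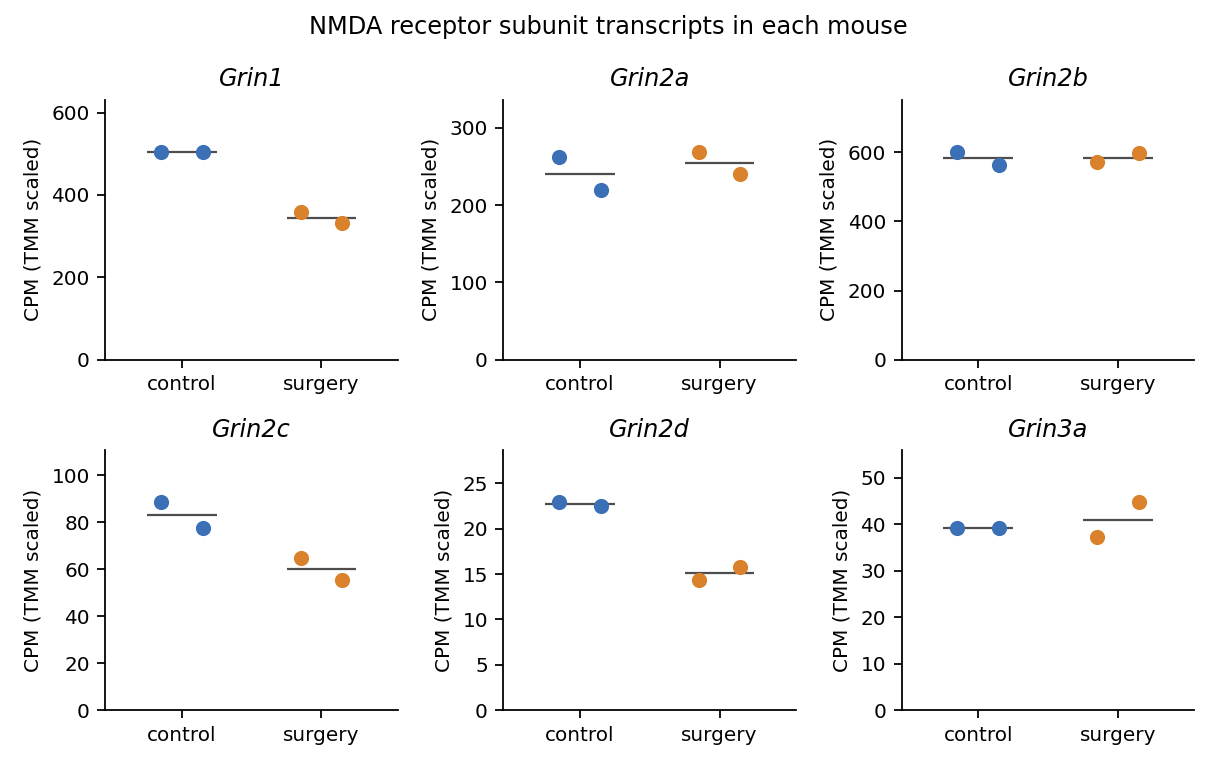
The level of each subunit gene in CPM is plotted for each mouse, with control mice in blue, surgery mice in orange, the mean of each pair as a line and every axis starting at 0. The surgery mice sit below the control mice for Grin1, Grin2c and Grin2d, and the groups overlap for the other 3 genes.

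Grin1 (ENSMUSG00000026959) encodes GluN1, the obligatory subunit that binds the co-agonist, and lies on the minus strand of chromosome 2 from 25291181 to 25319187 in the mm10 genome. Its level was 503 and 505 CPM in the control mice, from 8671 and 9228 counts. In the surgery mice it was 358 and 331 CPM, from 5711 and 5580 counts. The control mice nearly coincided and both surgery mice were well below them. The mean went from 504 ± 1.05 to 344 ± 19.4 CPM (SD, n = 2 mice in each group), a difference of -0.55 on the log2 scale (standard error, SE, 0.06, 95% interval -0.70 to -0.40). The adjusted p was 0.0045 by the edgeR test. The fold change of 0.683 lay just outside the limit of 0.67 for a DEG. With the GC content and length offsets the log2 fold change was -0.23, with a 95% interval from -0.38 to -0.08, and the adjusted p by edgeR was 0.081.

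The exons of Grin1 overlap those of the antisense gene Grin1os by 1307 bases. Grin1os counts were 394 and 374 in the control mice against 253 and 312 in the surgery mice, with a log2 fold change of -0.33 (SE 0.13) and an adjusted p of 0.106 by edgeR. The sources used here do not state whether strand was used in counting, so reads from the overlap cannot be assigned to one gene with certainty. The counts of Grin1os were small beside those of Grin1.

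Grin2a and Grin2b encode GluN2A and GluN2B, the main GluN2 subunits of hippocampal pyramidal cells, of which GluN2B prevails early in development and binds calcium/calmodulin-dependent kinase II most tightly. Grin2a (ENSMUSG00000059003) lies on chromosome 16 from 9567898 to 9995560, and Grin2b (ENSMUSG00000030209) on chromosome 6 from 135713233 to 136173511, both on the minus strand. The level of Grin2a was 262 and 219 CPM in the control mice against 269 and 241 CPM in the surgery mice. The groups overlapped, and the control mice differed more from each other than the group means did. Its log2 fold change was 0.08 (SE 0.10, 95% interval -0.16 to 0.33), with an adjusted p of 0.589 by edgeR, and the interval on the fold scale ran from 0.895 to 1.25. Of the 75 nt windows of its transcripts, 11.1% occur in transcripts of another gene, and no such window was found for the other 5 genes.

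Grin2b was the subunit gene with the most counts, at 602 and 563 CPM in the control mice against 571 and 597 CPM in the surgery mice. The values of the surgery mice lay between those of the control mice. The means were 582 ± 27.6 and 584 ± 18.3 CPM, and the log2 fold change was 0.00 (SE 0.06, 95% interval -0.15 to 0.15), with an adjusted p of 0.970 by edgeR. With the GC content and length offsets the log2 fold changes were 0.23 for Grin2a (adjusted p 0.222 by edgeR) and 0.02 for Grin2b (adjusted p 0.896).

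Grin2c and Grin2d encode GluN2C and GluN2D, whose channels are less sensitive to magnesium block. GluN2C is best known from cerebellar granule cells and GluN2D from the developing brain and from interneurons. Grin2c (ENSMUSG00000020734) lies on the minus strand of chromosome 11 from 115249169 to 115267243. Its level was 88.6 and 77.6 CPM in the control mice against 64.9 and 55.3 CPM in the surgery mice. Both surgery mice were below both control mice, with 1527 and 1419 counts against 1035 and 933. The log2 fold change was -0.47 (SE 0.11, 95% interval -0.72 to -0.21), with an adjusted p of 0.0225 by edgeR. This call rested on single mice, since its adjusted p by edgeR was 0.064 when control mouse 1 was left out and 0.058 when surgery mouse 2 was. With the GC content and length offsets the log2 fold change was -0.09 (95% interval -0.35 to 0.17), with an adjusted p of 0.661.

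Grin2d (ENSMUSG00000002771) lies on the minus strand of chromosome 7 from 45831883 to 45878378 and had the fewest counts of the 6 genes, 395 and 412 in the control mice against 229 and 266 in the surgery mice. Its level was 22.9 and 22.5 CPM in the control mice against 14.4 and 15.8 CPM in the surgery mice. The groups were far apart relative to the gap within each pair. The log2 fold change was -0.59 (SE 0.11, 95% interval -0.86 to -0.32), with an adjusted p of 0.0128 by edgeR. Its fold change of 0.663 lay just inside the limit for a DEG. It fell short of that limit with library totals alone (log2 fold change -0.55), at a minimum count of 50 (-0.57) and without surgery mouse 1 (-0.54). Without surgery mouse 1 the fold changes of Grin1, at -0.62, and Grin2c, at -0.60, were past the limit. With the GC content and length offsets the log2 fold change was -0.19 (95% interval -0.47 to 0.08), with an adjusted p of 0.354. Its exons overlap those of the antisense gene Gm45441 by 643 bases.

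Grin3a (ENSMUSG00000039579) encodes GluN3A, a subunit that lowers calcium permeability and is most abundant in young brain, and lies on the minus strand of chromosome 4 from 49661611 to 49845744. Its level was 39.2 and 39.1 CPM in the control mice against 37.2 and 44.7 CPM in the surgery mice. One surgery mouse was below the control mice and the other above them. The log2 fold change was 0.07 (SE 0.11, 95% interval -0.19 to 0.32), with an adjusted p of 0.680 by edgeR, and with the offsets it was -0.13 (adjusted p 0.514). Grin3b, the remaining gene of the family, was outside the 6 and was not tested, since its 8 and 9 counts in the control mice against 4 and 3 in the surgery mice did not pass the filter.

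**Figure D2:**
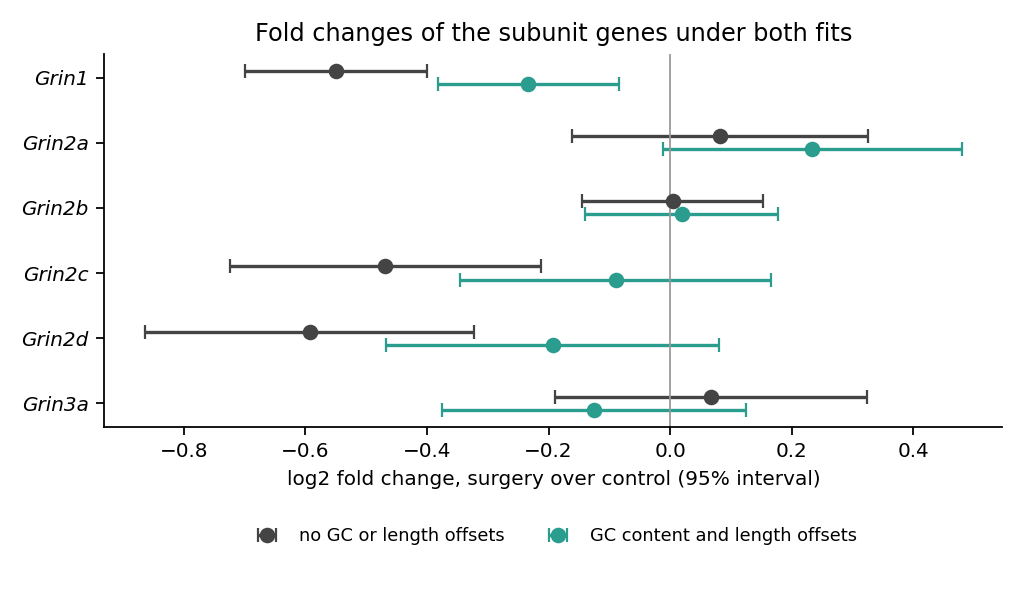
The log2 fold change of surgery over control mice is plotted with its 95% interval for each subunit gene, in grey from the fit without offsets and in green from the fit with GC content and length offsets. The intervals of Grin1, Grin2c and Grin2d lie below 0 without the offsets, and with them only that of Grin1 does.

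The 3 genes that were lower are the 3 with the highest GC content among the 6. The transcripts of Grin1 had a mean GC content of 57.8%, those of Grin2c 61.6% and those of Grin2d 65.5%, against 52.5% for Grin2a, 49.5% for Grin2b and 46.1% for Grin3a. When the genes tested were split into eighths by GC content, Grin1, Grin2c and Grin2d fell into the highest eighth, above 57.5%. The median log2 fold change of that eighth was -0.33, and 797 of its 2140 genes (37.2%) passed as lower and 8 as higher. The 3 subunit genes lay below this median, by 0.22 for Grin1, 0.13 for Grin2c and 0.26 for Grin2d on the log2 scale, and Grin2d stood at percentile 13.3 of the eighth, Grin1 at 17.3 and Grin2c at 27.7.

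The other genes lay in eighths with other medians. Grin2a, in an eighth whose median log2 fold change was -0.06, lay 0.15 above it. Grin2b lay 0.04 below its median of 0.05, and Grin3a, in an eighth where 28.8% of the genes passed as higher and the median was 0.30, lay at 0.07. Library GC trend, group and these fold changes moved together in the 4 mice, and with 2 mice in each group the trend and the surgery cannot be told apart.

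**Figure D3:**
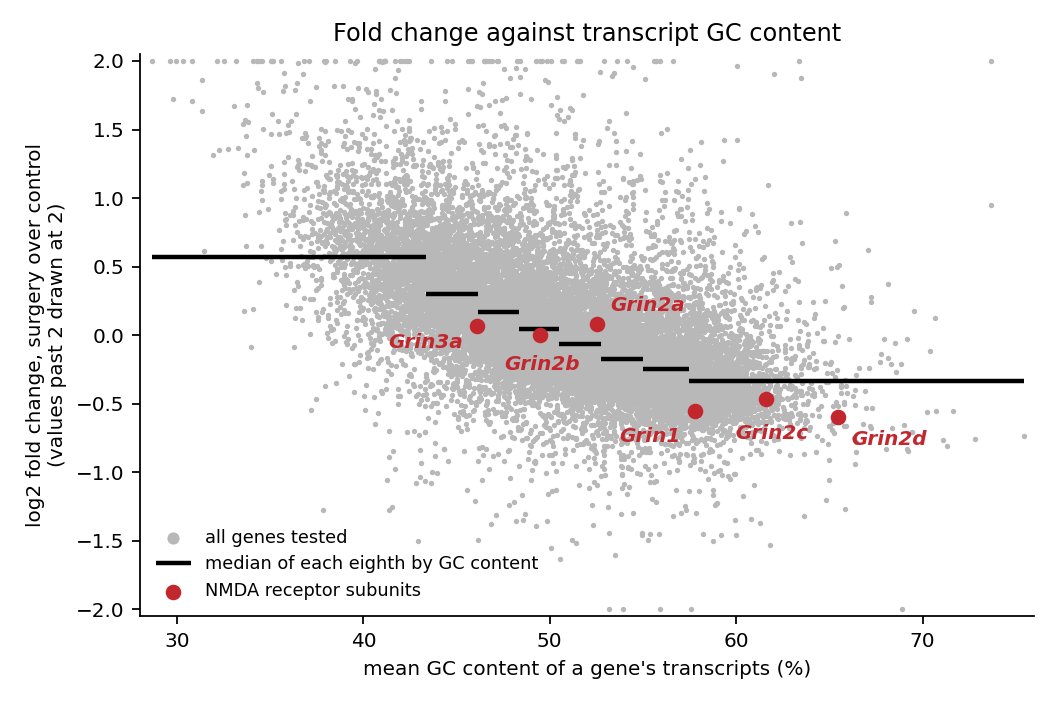
The log2 fold change of surgery over control mice is plotted against the mean GC content of a gene's transcripts in percent, with all genes tested in grey, the median of each eighth of the genes by GC content as a black line and the 6 subunit genes in red. The medians fall from 0.57 in the lowest eighth to -0.33 in the highest, where Grin1, Grin2c and Grin2d lie.

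To compare levels between genes, CPM were divided by the merged exon length in kilobases. In the control mice the level per kilobase was highest for Grin1, 52.0 ± 0.109 CPM per kilobase (SD, n = 2), followed by Grin2b at 23.4 ± 1.11. Grin2c at 16.5 ± 1.55 and Grin2a at 13.4 ± 1.71 came next, with ranges from 15.4 to 17.6 and from 12.2 to 14.6. Grin2d at 3.41 ± 0.0414 and Grin3a at 3.19 ± 0.00706 were lowest, and Grin3b was at 0.145. Thus Grin1 and Grin2b stood clear of the next gene, and the pairs Grin2c and Grin2a, and Grin2d and Grin3a, were close.

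In the surgery mice Grin1 was at 35.5 ± 2.00 and Grin2b at 23.5 ± 0.736 CPM per kilobase. Grin2a at 14.2 ± 1.12 was then above Grin2c at 11.9 ± 1.35, and Grin3a at 3.34 ± 0.431 above Grin2d at 2.26 ± 0.149. Both close pairs had therefore changed places, with Grin2a from 13.4 to 15.0 and Grin2c from 11.0 to 12.9 in the single mice. The order in the control mice depended on the length used. With the longest annotated transcript in place of the merged exons, Grin1 was at 118, Grin2c at 17.0, Grin2a at 16.4, Grin3a at 5.22 and Grin2d at 4.19 CPM per kilobase.

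The share of each GluN2 gene in the summed GluN2 level per kilobase followed from these values. Grin2b held 40.4% and 42.2% in the control mice against 43.3% and 47.3% in the surgery mice. Grin2a held 24.4% and 22.8% against 28.3% and 26.4%. Grin2c held 29.4% and 28.7% against 24.3% and 21.6%, and Grin2d 5.75% and 6.31% against 4.07% and 4.66%. For each of the 4 genes the shares of the surgery mice lay on one side of those of the control mice, upward for Grin2a and Grin2b and downward for Grin2c and Grin2d, as they must in part because shares add to the whole. The summed GluN2 level was 59.9 and 53.7 CPM per kilobase in the control mice against 53.0 and 50.8 in the surgery mice, so the surgery mice were lower by a margin smaller than the gap between the control mice.

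**Figure D4:**
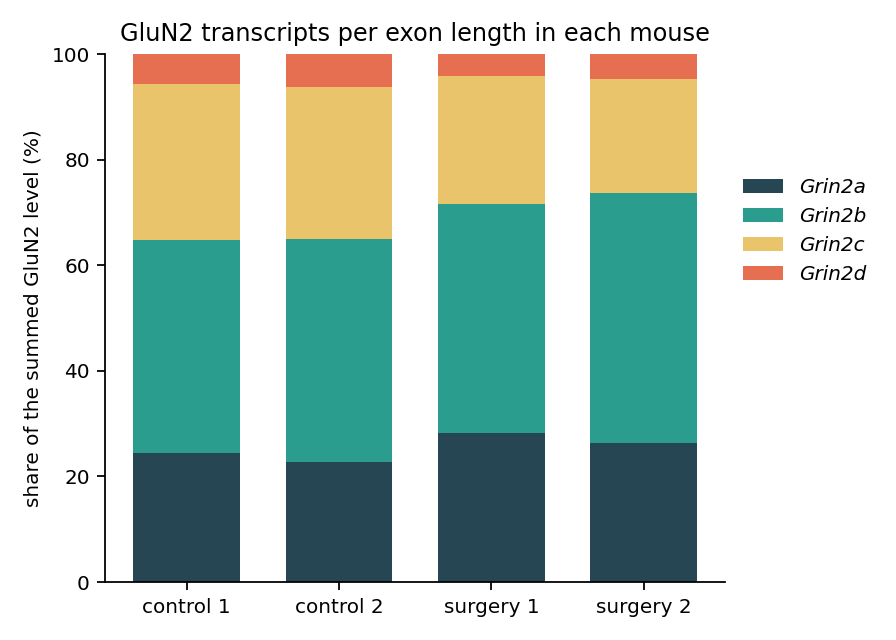
The share of Grin2a, Grin2b, Grin2c and Grin2d in the summed GluN2 level per kilobase of exon is plotted in percent as stacked bars, 1 for each mouse. Grin2c and Grin2d together take a smaller part of the bar in both surgery mice, where Grin2c is at 24.3% and 21.6% against 29.4% and 28.7% in the control mice.

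The ratio of Grin2a to Grin2b, often read as the maturity of synaptic NMDA receptors, was compared as a log2 ratio per kilobase. It was -0.73 and -0.89 in the control mice against -0.61 and -0.84 in the surgery mice, so the groups overlapped, and the difference of 0.08 had a p of 0.667 by the two-sided exact permutation test over mice. The log2 ratio of Grin1 to Grin2b was 1.10 and 1.20 in the control mice against 0.68 and 0.50 in the surgery mice, without overlap. The mean ratio was 2.22 in the control mice against 1.51 in the surgery mice, and the difference of -0.56 on the log2 scale had a p of 0.333 by the same exact permutation test, which is the smallest that 2 mice against 2 can give. Adjusted over both ratios each exact permutation p was 0.667. With the offsets the log2 ratio of Grin2a to Grin2b was -0.785 and -0.973 in the control mice against -0.540 and -0.777 in the surgery mice, narrowly without overlap, and the difference of 0.22 had an exact permutation p of 0.333. The difference for Grin1 to Grin2b was then -0.25, with the same p by the exact permutation test.

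For each subunit gene that passed the test, the genes with the most similar pattern over the 4 libraries were the 2 nearest by Euclidean distance of centred log2 CPM among 13852 protein-coding genes. For Grin1 they were Ndufs8, a subunit of respiratory complex I (distance 0.016, log2 fold change -0.54), and Rabggta, part of the enzyme that attaches lipid anchors to Rab proteins (0.018 and -0.54). For Grin2c they were Ush1g (0.023 and -0.54), which did not pass the test itself (adjusted p 0.324 by edgeR), and Hspbp1 (0.035 and -0.48), a partner of Hsp70 chaperones. For Grin2d they were the protocadherin gene Pcdhac2 (0.011 and -0.59) and Tpst2, a protein-tyrosine sulfotransferase (0.021 and -0.58). Over 4 libraries such a pattern holds only the step between the groups and the gap within each pair.

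Promoter windows from RefSeq for the GRCm38.p6 build, which is the mm10 assembly, were matched by symbol for 3 of the 6 genes. These happen to be the 3 that were lower, and they are shown because these genes moved together. Each window holds the 250 bases before the annotated start, on the minus strand, written 5′ to 3′ in lower case with each GGGCGG, the core of the GC box that Sp factors bind, in capitals. The windows are chr2:25319188-25319437 for Grin1, chr11:115267244-115267493 for Grin2c and chr7:45866682-45866931 for Grin2d, the last of which lies inside the span of Grin2d in the count table.
Grin1: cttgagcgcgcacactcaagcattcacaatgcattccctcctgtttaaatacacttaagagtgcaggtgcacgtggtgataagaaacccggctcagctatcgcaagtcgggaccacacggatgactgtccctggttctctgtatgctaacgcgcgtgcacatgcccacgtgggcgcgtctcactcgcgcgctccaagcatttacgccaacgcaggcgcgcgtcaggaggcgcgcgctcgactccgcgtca
Grin2c: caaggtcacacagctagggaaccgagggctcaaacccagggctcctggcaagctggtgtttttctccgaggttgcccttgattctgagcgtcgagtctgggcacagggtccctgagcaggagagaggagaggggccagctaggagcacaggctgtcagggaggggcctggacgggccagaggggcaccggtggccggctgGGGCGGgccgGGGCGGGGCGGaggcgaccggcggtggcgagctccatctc
Grin2d: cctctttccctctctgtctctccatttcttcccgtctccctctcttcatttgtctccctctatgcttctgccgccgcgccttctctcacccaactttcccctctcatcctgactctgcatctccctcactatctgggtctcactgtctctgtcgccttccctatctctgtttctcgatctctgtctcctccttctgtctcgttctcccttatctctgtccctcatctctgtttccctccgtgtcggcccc

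The windows of the 3 genes differed from each other. That of Grin1 had a GC content of 58.8% with 27 CpG dinucleotides, that of Grin2c 68.8% with 15 and that of Grin2d 54.4% with 9, against medians of 52.4% and 6 over all 32851 windows. Both strands were searched for 4 motifs. GGGCGG occurred 3 times in the window of Grin2c, its first base 50, 40 and 35 bases before the start of the gene, and not in the other 2, while 32.7% of all windows hold it. The NRF-1 motif (GCGCA, then any base, then GCGC), present in 3.74% of all windows, its shorter form TGCGCA (6.43%) and the cyclic AMP response element TGACGTCA (1.55%) were not found in the 3 windows. A match is a run of letters and not evidence of binding.

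The genes that work with the receptor were followed in 7 lists, from glutamate release to transcription, with 105 genes of which 103 were tested. Of these, 24 passed as higher and 28 as lower, 50.5% of the genes against 26% of all genes tested. At a minimum count of 50, 56 of the 103 passed, and 4604 of the 13352 genes then tested did. What part the expression level of the list genes has in this was not tested. Of the 103, 9 were DEGs, 7 higher and 2 lower, beside 9.01% of all genes. With the GC content and length offsets 12 passed as higher and 9 as lower, beside 2.99% and 1.99% of all genes. Scaling by library totals alone turned the split to 30 higher and 24 lower, a turn shared by all genes tested, which went from 2250 higher and 2199 lower to 2651 and 1812, and without control mouse 2 the count was 34, with 15 higher and 19 lower.

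**Figure D5:**
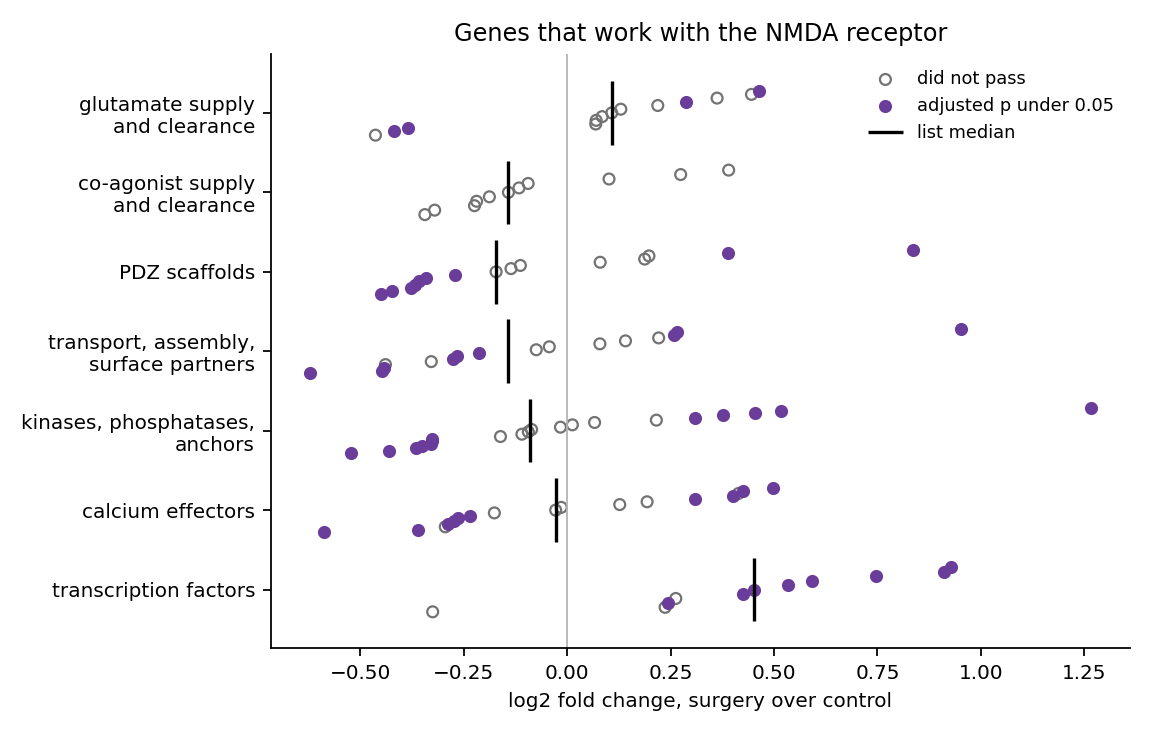
The log2 fold change of surgery over control mice is plotted for each tested gene of the 7 lists, filled where the adjusted p was under 0.05 and open where it was not, with the list median as a vertical line. Of the 7 list medians, that of the transcription factors is the highest, at 0.45, and that of the PDZ scaffolds the lowest, at -0.17.

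Among 13 genes of glutamate supply and clearance, 2 passed as higher and 2 as lower, with a median log2 fold change of 0.11. These 30.8% lay near the 26% of all genes tested, which makes the count no result about this list. Slc1a1, the neuronal glutamate transporter, rose from 82.6 and 78.7 CPM to 113 and 109 CPM, a log2 fold change of 0.46 (SE 0.07, adjusted p 0.0062 by edgeR), and Slc1a2, the astrocytic transporter that removes most synaptic glutamate, rose by 0.29 (SE 0.07, adjusted p 0.0234). Both also passed with the offsets, at 0.51 and 0.38. Slc17a7, which loads glutamate into vesicles, fell by 0.39 on the log2 scale (SE 0.06, adjusted p 0.0064), and Gls2, a glutaminase, by 0.42 (SE 0.11, adjusted p 0.0373). With the offsets these were at -0.10 and -0.13 and did not pass. Gls2 fell short of the threshold in 8 of 12 alternative fits, those named here among them. Slc1a2 did not pass without control mouse 2 (adjusted p 0.109 by edgeR) or surgery mouse 1 (0.064), and Gls2 without control mouse 1 (0.066), control mouse 2 (0.138) or surgery mouse 2 (0.158).

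Of the 11 tested genes that make, carry or remove D-serine and glycine, none passed the edgeR test, 1 was higher and 2 were lower at an unadjusted p under 0.05, and DESeq2 called 1 as lower. The median log2 fold change was -0.14. Srr, which makes D-serine, was at 36.7 and 33.7 CPM in the control mice against 42.6 and 42.5 CPM in the surgery mice, with a log2 fold change of 0.27 (SE 0.09, adjusted p 0.060 by edgeR). The groups did not overlap for Srr, although it did not pass. It passed with library totals alone (adjusted p 0.036 by edgeR), at a minimum count of 50 (0.036) and with the replicate number as a block (0.049), and its adjusted p ran up to 0.308 over the other alternatives.

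Among 15 PDZ scaffolds and linked proteins of the postsynaptic density, 7 passed as lower and 2 as higher, beside 12.8% and 13.1% of all genes. Dlg4, whose product PSD-95 binds the tails of GluN2 subunits, fell from 915 and 877 CPM to 718 and 680 CPM, a log2 fold change of -0.36 (SE 0.06, adjusted p 0.0091 by edgeR). Dlgap3, Homer3 and Shank1, which link PSD-95 complexes, fell by 0.45, 0.42 and 0.37 on the log2 scale. Homer1, whose short form is induced by activity and uncouples Homer complexes, rose from 60.4 and 59.5 CPM to 118 and 96.0 CPM, by 0.84 on the log2 scale (SE 0.11, adjusted p 0.0050), and Homer2 rose by 0.39. The counts do not separate the forms of Homer1. With the offsets none of the 15 passed as lower, beside 1.99% of all genes. With the same offsets 1 was lower at an unadjusted p under 0.05, and Shank1 stood at 0.01. Homer3 did not pass without control mouse 1 (adjusted p 0.065 by edgeR) or surgery mouse 2 (0.074), nor Homer2 without control mouse 1 (0.078) or surgery mouse 1 (0.083). With the offsets Homer2 passed as higher at 0.55 and Homer1 did not pass at 0.50 (adjusted p 0.052).

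Of the 16 genes of receptor transport, assembly and surface partners, 3 passed as higher and 6 as lower, beside 13.1% and 12.8% of all genes. Lin7c rose by 0.95 on the log2 scale (SE 0.07, adjusted p 0.0040 by edgeR), from 58.5 and 54.6 CPM to 107 and 112 CPM, and also with the offsets, by 0.52. Its paralog Lin7b fell by 0.44 (adjusted p 0.0457). The encoded proteins belong to the complex through which the motor Kif17 carries GluN2B vesicles along dendrites. Kif17 itself fell by 0.45, Gipc1, a PDZ protein that binds GluN2B, by 0.62 and Pacsin1, which takes part in GluN3A endocytosis, by 0.27. Vps35 and Snx27, of the retromer path that recycles receptors, rose by 0.27 and 0.26. Without the offsets these 7 genes passed, and with them Lin7c alone of the 7 did, Vps35 standing at -0.11 and Pacsin1 at 0.05. With the offsets, beside 2.99% and 1.99% of all genes, 2 genes of the whole list passed as higher and 3 as lower. Besides Lin7c these were Lrp8, at 0.43, and Neto1, Exoc4 and Nsf, at -0.45, -0.34 and -0.27, named after their values were seen. Lin7c and Gipc1 passed with each mouse left out, and the other 5 did not. Pacsin1 and Lin7b did not pass without control mouse 1 (adjusted p 0.069 and 0.159 by edgeR) or surgery mouse 2 (0.072 and 0.140), nor Vps35 without control mouse 2 (0.170) or surgery mouse 2 (0.116). Kif17 failed without control mouse 1, control mouse 2 or surgery mouse 2 (0.059, 0.060 and 0.087), and Snx27 without control mouse 2, surgery mouse 1 or surgery mouse 2 (0.201, 0.117 and 0.066).

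Among 20 kinases, phosphatases and anchors, 5 passed as higher and 7 as lower, beside the same shares of all genes. Src, a kinase that raises NMDA receptor currents, fell from 195 and 197 CPM to 141 and 132 CPM, a log2 fold change of -0.52 (SE 0.06, adjusted p 0.0049 by edgeR). Fyn, which phosphorylates GluN2B, had a log2 fold change of -0.11 (SE 0.08, adjusted p 0.368), with overlapping groups. Ptpn5, the phosphatase STEP that opposes Fyn, fell by 0.43 and Ptk2b by 0.35. Yes1, a further Src family kinase, rose by 1.27 (SE 0.15, adjusted p 0.0049) from 6.10 and 5.47 CPM to 13.6 and 14.2 CPM. The anchors Akap9 and Akap5 rose by 0.52 and 0.45 and the casein kinase gene Csnk2a1 by 0.38. With the offsets, beside 2.99% and 1.99% of all genes, 2 of the 20 passed as higher and 1 as lower. These were Yes1, at 0.76 (adjusted p 0.045), and, named after their values were seen, Cdk5r1 at 0.39 and Ppp2ca at -0.39. Ptpn5 was at the threshold without control mouse 1 (adjusted p 0.0501 by edgeR).

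Among 17 calcium effectors, 4 passed as higher and 6 as lower, beside 13.1% and 12.8% of all genes. Calm3, a gene of the calcium sensor calmodulin, fell by 0.59 on the log2 scale (SE 0.06, adjusted p 0.0045 by edgeR), from 2479 and 2368 CPM to 1649.5 and 1577 CPM. Camk2a and Camk2b, the subunits of the kinase that docks on GluN2B, fell by 0.26 (adjusted p 0.0255) and 0.27. Nos1, the neuronal nitric oxide synthase tethered to PSD-95, fell by 0.36 and Rasgrf1, an exchange factor, by 0.29. Camk4 rose by 0.42, and the calcineurin genes Ppp3r1 and Ppp3cb by 0.50 and 0.40. With the offsets 1 of the 17 passed as higher and 4 as lower, beside 2.99% and 1.99% of all genes. Calm3 (-0.32), Rasgrf1 (-0.27) and Camk4 (0.54) passed in the same direction, and Ppp3cb passed as lower at -0.41 (adjusted p 0.022), while Ppp3r1 stood at -0.01 and did not pass (adjusted p 0.943). Without control mouse 2 the adjusted p by edgeR was 0.052 for Camk4, 0.053 for Nos1 and 0.071 for Camk2a. Camk2a and Camk2b did not pass without control mouse 1 (0.075 and 0.098) or surgery mouse 2 (0.060 and 0.067) either.

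Among 11 transcription factors studied at NMDA receptor gene promoters, 8 passed as higher and none as lower, beside 13.1% and 12.8% of all genes, with a median log2 fold change of 0.45. At an unadjusted p under 0.05, 1 was lower, and DESeq2 called 6 as higher and none as lower. Creb1, which mediates calcium-dependent transcription, rose from 29.7 and 29.8 CPM to 54.4 and 57.5 CPM, a log2 fold change of 0.91 (SE 0.08, adjusted p 0.0043 by edgeR). Gabpa rose by 0.93, Rest, a repressor of neuronal genes, by 0.75 and Mef2c by 0.59. Rest had the lowest level of these, from 4.82 and 5.85 CPM to 9.53 and 8.41 CPM, and it did not pass without control mouse 1 (adjusted p 0.123 by edgeR), control mouse 2 (0.060) or surgery mouse 1 (0.106). Nrf1, a factor at promoters of subunit and respiratory genes, had a log2 fold change of -0.33 (SE 0.10, adjusted p 0.055), with both surgery mice below both control mice. With the offsets 4 of the 11 passed as higher, beside 2.99% of all genes, among them Creb1 at 0.68 and Mef2c at 0.35, and the median was 0.33.

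In RNA from whole tissue, fewer cells of a type and less RNA per cell cannot be told apart, so marker genes of the cells in and around the hippocampus were read in the same libraries. The counts of markers that passed stand beside 13.1% of all genes tested that passed as higher and 12.8% as lower. With the offsets these shares were 2.99% and 1.99%. The summed level of 10 markers of all neurons was 6392 and 6234 CPM in the control mice against 6511 and 6238 CPM in the surgery mice, with 1 gene passing as higher and 2 as lower. That of 12 markers of hippocampal excitatory neurons was 8995 and 8683 CPM against 7684 and 7495 CPM, with 2 higher and 5 lower. The 5 lower genes were Slc17a7, Camk2a, Wfs1, Fibcd1 and Grik4, and Grik4 alone of them passed with the offsets. The 2 higher genes were Neurod6, at a log2 fold change of 0.53 (adjusted p 0.029 by edgeR), and Calb1, at 0.48 (adjusted p 0.017), so the list did not move in one direction. With the offsets neither passed, at 0.12 (adjusted p 0.607 by edgeR) and 0.01 (adjusted p 0.978), and the genes of the list that passed were Nrgn and Neurod2 as higher, at 0.49 and 0.47, and Grik4 as lower, at -0.42. Camk2a, at 5121 and 5023 CPM against 4228 and 4224 CPM, made up most of the sum. The sum was lower in both surgery mice, as Grin1 was, and the part of these markers in the result for Grin1 was not tested.

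The counts in the next lists stand beside the same 13.1% and 12.8% of all genes tested. The summed level of 10 interneuron markers, relevant to Grin2d, was 1268 and 1242 CPM in the control mice against 1248 and 1096 CPM in the surgery mice, with 2 genes higher and 2 lower. That of 10 astrocyte markers was 4853 and 4871 CPM against 5152 and 4949 CPM, with 3 higher and 2 lower. Aqp4, Gja1 and Slc1a2 were the higher genes, at log2 fold changes of 0.73, 0.36 and 0.29, and Aldh1l1 and Aldoc the lower ones, at -0.49 and -0.50, so the list did not move in one direction without the offsets. With them Aqp4, Gja1 and Slc1a2 passed, at 0.70, 0.32 and 0.38, and Aldh1l1 and Aldoc did not, at -0.23 and -0.30 (adjusted p 0.231 and 0.082 by edgeR). The part of this list in the result for Grin2c was not tested. The 7 markers of oligodendrocyte precursors summed to 332 and 330 CPM against 275 and 255 CPM, with 3 lower. Microglial markers summed to 349 to 379 CPM over the 4 mice, with P2ry12 of 9 higher, at a log2 fold change of 0.84. Endothelial markers summed to 242 and 258 CPM against 267 and 360 CPM, with Slco1a4 and Flt1 of 8 higher, at 0.87 and 0.41. With the offsets these 3 genes did not pass. Oligodendrocyte markers varied from 4242 to 6565 CPM, with Ermn of 9 higher at 0.88 and not with the offsets, and choroid plexus markers from 130 to 5504 CPM, in both cases without separating the groups.

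Neighboring regions were read in the same way. The cerebellar granule cell list summed to 149 and 143 CPM in the control mice against 215 and 236 CPM in the surgery mice. Of its 7 tested genes Zic1, Zic2 and Etv1 passed as higher, at log2 fold changes of 1.51, 1.12 and 0.51, beside 13.1% of all genes tested. With the offsets Zic1 and Zic2 passed, at 1.67 and 1.44 (adjusted p 0.015 and 0.016 by edgeR), and Etv1 did not, at 0.32 (adjusted p 0.109). The defining marker of the list, Gabra6, was at 0.581 and 0.821 CPM against 0 and 0.652 CPM. Cbln1, a further granule cell marker, was at 9.87 and 15.5 CPM against 8.90 and 8.06 CPM, and Cbln3 at 3.13 and 2.95 CPM against 0.690 and 2.96 CPM, and neither passed the test. The part of this list in the result for Grin2c, which granule cells express, was not tested. Thalamic markers summed to 121 and 119 CPM against 143 and 144 CPM, with none of 7 tested genes passing. Striatal markers summed to 203 and 242 CPM against 186 and 194 CPM, with 1 of 8 lower, beside 12.8% of all genes tested.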

How the data were processed

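Hippocampal poly(A) RNA of 4 mice was sequenced with paired ends. The authors mapped the reads to mm10 with HISAT and deposited a count of reads per gene and mouse, without normalization. The submitters' processing notes also list HISAT2 2.1.0, Bowtie2 2.2.3, TopHat2 and HTSeq 0.6.0, and the use of strand is not given in the sources used here. The deposited table also holds the authors' own comparison (scaled mean, fold change, p-values and marks of significance), which was not used.

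The analysis used edgeR 4.0.16 under R 4.3.3, with filterByExpr at a minimum count of 10, TMM scaling and Benjamini-Hochberg adjustment over 17144 genes. The quasi-likelihood F test (glmQLFit, glmQLFTest) had condition as the only term, and no dispersions were estimated in a step before the fit. The size of each log2 fold change divided by the square root of its F statistic gave the standard error. DESeq2 1.42.0 was an alternative, as were other scalings and filters, the replicate number as a block, and leaving out each mouse in turn. Smooth trends of each library with transcript GC content and exon length (mgcv 1.9.3, basis size 8) entered the second fit as offsets. The procedures were tested on simulated counts. Library totals ran from 15763432 to 18573386, and the replicates differed by more than counting noise (chi-square per degree of freedom 13.4 in the control mice and 8.45 in the surgery mice).

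Coordinates are those of the deposited table. Lengths, GC content and overlaps came from GENCODE M21, which gives the 6 genes the same coordinates, and 29238 of the 29300 identifiers occur in it. The members and lists were chosen with earlier results of these data known. Named partner genes were, in each list, up to 4 in each direction with an adjusted p under 0.05, by size of change, and Nrf1, Srr, Dlg4, Camk2a, Calm3, Fyn and Ptpn5 whatever their values. Some named genes are not reported here, and protein sequences were not analysed here.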

Additional observations from a re-analysis of the deposited data

How the results depend on the processing

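After removal of the GC content and length trends, 0 subunit genes, 21 partner genes and 854 of all genes passed, Grin1 stood at -0.23, Grin2c at -0.090 and Grin2d at -0.19, and among named partners the direction turned for Shank1 (0.011), Vps35 (-0.11), Pacsin1 (0.049), Ppp3r1 (-0.013) and Ppp3cb (-0.41). The offsets remove a trend that differs between the groups, and whether it is technical was not tested. With the replicate number as a block 3 subunit genes, 62 partner genes and 5281 of all genes passed. With the block and the offsets together 3627 of all genes, 41 partner genes and 2 subunit genes passed, Grin1 as lower at -0.23 (adjusted p 0.0025 by edgeR) and Grin2a as higher at 0.24 (adjusted p 0.0035), while Grin2c was at -0.089 and Grin2d at -0.19, Shank1 at 0.012, Vps35 at -0.11, Pacsin1 at 0.050, Ppp3r1 at -0.011 and Ppp3cb at -0.41. The numbers only name the mice, and deviations of same-numbered mice correlated at 0.22 over genes. With the fold limits 1 subunit gene, 9 partner genes and 1544 of all genes passed. Without a filter on low counts 2665 genes passed and Grin2c, at -0.48, did not (adjusted p 0.068 by edgeR). Leaving out each mouse in turn gave 2 to 3 subunit genes, 34 to 52 partner genes and 2408 to 4105 of all genes, with the fewest partner genes (34) and genes (2408) without the second control mouse and 2933 genes without the second surgery mouse, and the log2 fold change of Grin2c ran from -0.60 to -0.35. With longest transcripts, chosen after the data were seen, levels in the control mice were 118 (Grin1), 16.4 (Grin2a), 4.19 (Grin2d) and 5.22 (Grin3a) CPM per kilobase. Grin1 and Grin2d passed under each scaling, each filter and each mouse left out, and by DESeq2.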
